A study of Homo sapiens with 6 samples.

Results

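The respiratory chain genes of the mitochondrial and nuclear genomes numbered 113 of the 17721 gene identifiers in the deposited data. They were chosen by position and name: 15 identifiers on the mitochondrial chromosome, and 98 nuclear identifiers named for subunits or assembly factors of complexes I to V. The nuclear names held 76 subunits and 22 others, which were 8 complex I assembly factors, 8 pseudogenes or retrocopies, 3 alternative forms (COX6B2, NDUFA4L2 and ATP5L2), COX7A2L, ATP5S and ATP5SL. The mitochondrial identifiers held 13 subunits and 2 ribosomal RNAs. The series had 6 RNA samples of U2OS, an osteosarcoma cell line. They were 2 samples of RNA co-immunoprecipitated with a mutant of NSun2 from shDNMT1 cells and 2 from shNC cells, with 1 input from shDNMT1 cells and 1 from shNC cells. shDNMT1 cells carry a short hairpin RNA against DNMT1, the enzyme that maintains cytosine methylation of DNA, and shNC cells are the control. NSun2 is a methyltransferase that places 5-methylcytosine in RNA. Per the labels, plasmid for the NSun2 mutant was introduced into shDNMT1 cells and into cells called U6, so the knockdown is not the sole manipulation. The labels do not say whether either line was a single clone.

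The values were FPKM (fragments mapped to a gene, scaled by its length and by the library's depth), in 2 tables with 1 value per gene. The tables carried no name of any sample or group. They are therefore called the second and the first table, and no comparison of shDNMT1 with shNC cells or of immunoprecipitate with input was made. With no replicate there is no SD and no test, and each difference below is a difference between these 2 tables only. Depth is unknown, so no interval is given. In bulk RNA such as this, fewer cells of a kind and less RNA per cell cannot be told apart.

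The second table listed 16824 identifiers and the first 15167, and 14270 were in both. DNMT1 was listed at 9.36 FPKM in the second table, against 23.3 FPKM in the first, and NSUN2 at 1147 FPKM in the second table, against 559 FPKM in the first. Of 8 genes of bone cells and mesenchyme, 6 were listed in the second table and 3 in the first. Those in the second table only had low values: RUNX2 (0.806 FPKM), BGLAP (0.144 FPKM) and SPARC (0.0328 FPKM). The intermediate filament vimentin (VIM) was listed at 407 FPKM in the second table and 262 FPKM in the first. Alkaline phosphatase (ALPL) was listed at 38.0 FPKM in the second table and 78.4 FPKM in the first, and COL1A1 at 0.451 FPKM in the second and 3.04 FPKM in the first. COL1A2 and SPP1 were listed in neither. Of 9 markers of epithelial, immune, endothelial, liver, muscle and glial cells, 3 were listed in each table and 6 in neither. The epithelial cadherin CDH1 was listed at 0.392 FPKM in the second table and 8.42 FPKM in the first, EPCAM at 0.555 FPKM in the second and 2.20 FPKM in the first, and CD68 at 4.60 FPKM in the second and 3.17 FPKM in the first. The part of these markers in the differences below was not tested.

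The respiratory chain passes electrons from NADH and succinate to oxygen through complexes I to IV and uses the proton gradient this builds to make ATP at complex V. Complex II is encoded by the nucleus alone, and the other complexes join a few subunits made inside the mitochondrion to a larger number made in the cytosol and imported. The mitochondrial genome is transcribed from both strands as long precursors, which are cut at the transfer RNAs into messenger and ribosomal RNAs. MT-ND6 is the protein gene read from the opposite strand to the others. Several cytosine methyltransferases act in this compartment: NSUN4 modifies the ribosomal RNA of the small subunit, NSUN3 a mitochondrial transfer RNA, and NSun2 is known to modify other mitochondrial transfer RNAs. Nuclear genes of the chain are classical targets of the transcription factors NRF1 and GABP, an ETS family protein, and of YY1.

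Promoters of 4 nuclear subunits are shown because motifs of these factors occurred both in subunits that were lower and in subunits that were higher in the second table. They are the 2 lowest and the 2 highest ratios among subunits with a motif in the stretch shown: NDUFS7 and NDUFB7 of complex I, and ATP5J and ATP5C1 of complex V. Each stretch is the 150 bases before the RefSeq start of the gene (GRCh38.p14), read 5′ to 3′ on the strand of the gene, with motif matches on either strand in capitals. NDUFS7 lies at chr19:1383757-1383906 on the plus strand, NDUFB7 at chr19:14572067-14572216 on the minus strand, ATP5J at chr21:25735055-25735204 on the minus strand and ATP5C1 at chr10:7788027-7788176 on the plus strand.
NDUFS7: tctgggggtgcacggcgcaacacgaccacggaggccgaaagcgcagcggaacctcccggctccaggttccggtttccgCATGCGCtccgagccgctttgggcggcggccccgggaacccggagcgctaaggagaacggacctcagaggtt
NDUFB7: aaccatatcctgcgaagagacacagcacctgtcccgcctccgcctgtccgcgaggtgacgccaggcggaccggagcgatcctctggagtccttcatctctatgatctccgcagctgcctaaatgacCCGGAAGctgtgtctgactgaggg
ATP5J: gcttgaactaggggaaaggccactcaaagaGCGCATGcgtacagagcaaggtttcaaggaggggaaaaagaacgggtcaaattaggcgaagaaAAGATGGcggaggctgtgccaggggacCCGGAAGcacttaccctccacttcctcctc
ATP5C1: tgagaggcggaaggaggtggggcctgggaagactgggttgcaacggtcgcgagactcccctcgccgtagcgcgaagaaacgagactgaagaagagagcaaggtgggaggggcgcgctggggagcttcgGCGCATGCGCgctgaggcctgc
The capitals mark the NRF1 motif GCGCATG in NDUFS7, 72 bases upstream of the start, and the ETS motif CCGGAAG in NDUFB7, 24 bases upstream. In ATP5J they mark the NRF1 motif 120 bases upstream, the YY1 motif AAGATGG 57 bases upstream and the ETS motif 30 bases upstream. In ATP5C1 they mark the NRF1 motif on both strands, 22 and 19 bases upstream, where the matches overlap. NDUFB7, a membrane arm subunit, was listed at 82.1 FPKM in the second table and 119 FPKM in the first. ATP5J, a subunit of the peripheral stalk, was listed at 26.4 FPKM in the second table and 20.0 FPKM in the first. ATP5J shared its merged locus with GABPA, which encodes a subunit of GABP.

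Among 62 nuclear subunits matched to a RefSeq promoter of 250 bases before to 50 after the start, 14 held the NRF1 motif (22.6%), against 4.67% of all 27305 promoters and 7.77% of the 10359 promoters of genes in both tables. The ETS motif was in 19 subunit promoters (30.6%), against 10.7% of all promoters and 19.8% of those of genes in both tables. The YY1 motif was in 16 (25.8%), against 6.06% of all promoters and 7.78% of those of genes in both tables. Both strands were searched. The end of the ETS motif and the start of the YY1 motif can overlap by 3 letters, and 0 of the subunit promoters held them so. Of 26 matched subunits that were lower in the second table, 4 held the NRF1 motif, 9 the ETS motif and 5 the YY1 motif. Of 36 that were higher, 10 held the NRF1 motif, 10 the ETS motif and 11 the YY1 motif. Each motif thus occurred on both sides. A match describes the sequence and is not a binding site shown by these data.

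The mitochondrial messenger RNAs were among the most abundant RNAs of both tables. MT-CO1, the catalytic subunit of cytochrome c oxidase (mitochondrial chromosome, 5904 to 7445, hg38; ENSG00000198804), was listed at 5903 FPKM in the second table, against 7457 FPKM in the first. It ranked 7 in the second table and 6 in the first. MT-CO3, another core subunit of that enzyme, was listed at 2253 FPKM in the second table and 3282 FPKM in the first, rank 13 in the second and 8 in the first. MT-CO2, which receives electrons from cytochrome c, was listed at 1235 FPKM in the second table and 1975 FPKM in the first. All 3 core subunits of complex IV were lower in the second table, with log2 ratios of second over first of -0.34, -0.54 and -0.68 for MT-CO1, MT-CO3 and MT-CO2 on the log2(FPKM + 1) scale. This scale, with a pseudocount of 1 FPKM, is used for every ratio below.

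MT-CYB, the cytochrome b of complex III, was listed at 837 FPKM in the second table, against 1377 FPKM in the first. Its log2 ratio of -0.72 was the lowest of the 106 respiratory chain genes in both tables. The level of MT-CO1 was 7.05 times that of MT-CYB in the second table and 5.42 times in the first, and it was 4.78 times that of MT-CO2 in the second and 3.78 times in the first. The messenger RNAs thus did not stand in the same proportions in the 2 tables.

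The 7 mitochondrial subunits of complex I form the proton-pumping core of its membrane arm. MT-ND4 was listed at 1743 FPKM in the second table and 1930.2 FPKM in the first, MT-ND5 at 1217 FPKM in the second and 1467 FPKM in the first, and MT-ND2 at 1129 FPKM in the second and 1369.9 FPKM in the first. MT-ND1 was listed at 1121 FPKM in the second table and 1455 FPKM in the first, and MT-ND3 at 339 FPKM in the second and 433 FPKM in the first. These 5 were lower in the second table, with log2 ratios between -0.38 (MT-ND1) and -0.15 (MT-ND4). MT-ND6, from the other strand, was listed at 561 FPKM in the second table and 574 FPKM in the first, a log2 ratio of -0.03, and MT-ND4L at 576 FPKM in the second and 573 FPKM in the first, a log2 ratio of 0.01. MT-ND4L was the sole mitochondrial messenger RNA not lower in the second table. The sign of both depends on the scaling: centring on the median of all identifiers put MT-ND4L at -0.05, and rescaling the rows off the mitochondrial chromosome to an equal sum put MT-ND6 at 0.05.

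MT-ATP6 and MT-ATP8, subunits of the proton channel of ATP synthase, were listed at 963 FPKM and 159.6 FPKM in the second table, against 1116 FPKM and 177 FPKM in the first. Their reading frames overlap and share a messenger RNA in cells, as do those of MT-ND4 and MT-ND4L. The tables nonetheless gave MT-ATP6 a level 6.03 times that of MT-ATP8 in the second and 6.30 times in the first, and MT-ND4 a level 3.03 times that of MT-ND4L in the second and 3.37 times in the first. MT-ATP6, MT-ATP8 and MT-CO3 shared a merged locus, as did MT-ND4 and MT-ND4L, so how fragments were divided enters the values of these 5. The 8 messenger RNAs alone at their locus were all lower in the second table, with a median log2 ratio of -0.34.

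The ribosomal RNAs stood apart from the messenger RNAs. MT-RNR1, of the small mitochondrial ribosomal subunit, was listed at 434 FPKM in the second table and 272 FPKM in the first, a log2 ratio of 0.67. MT-RNR2, of the large subunit, was listed at 165 FPKM in the second table and 153 FPKM in the first, a log2 ratio of 0.11. Both were higher in the second table, while 12 of the 13 messenger RNAs were lower. Both were also below most of the messenger RNAs in level: MT-CO1 was listed at 35.7 times the level of MT-RNR2 in the second table and 48.8 times in the first. The labels do not say how ribosomal RNA was treated in the libraries. Of the 22 mitochondrial transfer RNA genes, 0 were listed in either table, so they have no values here.

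**Figure D1:**
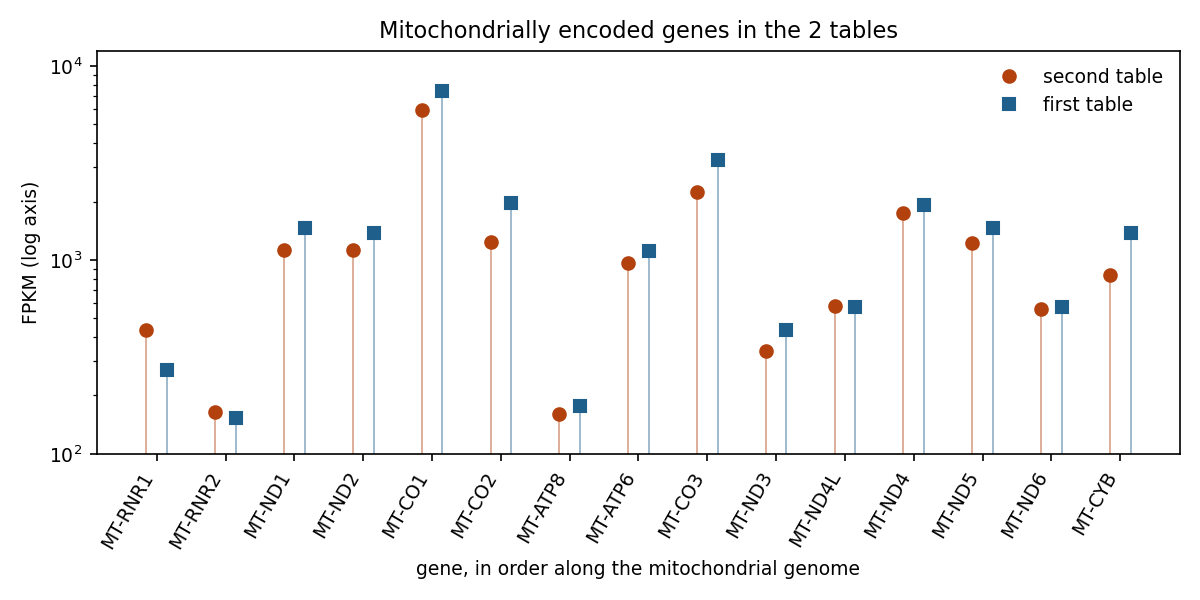
FPKM (log axis) of the 15 mitochondrially encoded genes in order along the mitochondrial genome, circles for the second table and squares for the first. The 2 ribosomal RNAs at the left are higher in the second table, and the messenger RNAs are lower there except MT-ND4L (576 FPKM in the second table, 573 FPKM in the first).

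Nuclear copies of mitochondrial DNA carried part of the signal. A merged locus on chromosome 1 (585989 to 859446) held MTND2P28 at 268 FPKM in the second table and 278 FPKM in the first, MTCO1P12 at 166 FPKM in the second and 242 FPKM in the first, and MTATP6P1 at 108 FPKM in the second and 131 FPKM in the first. These are near-identical copies, so fragments could be given to either place. The copy held 19.2% of the summed level of MT-ND2 and MTND2P28 in the second table and 16.9% in the first, and that of MT-CO1 held 2.73% in the second and 3.15% in the first. Summed with its copy, MT-ND2 had a log2 ratio of -0.24, MT-CO1 -0.34 and MT-ATP6 -0.22, all still lower in the second table.

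Over all identifiers, mitochondrial identifiers held 3.44% of the summed FPKM in the second table, against 4.08% in the first (FPKM being scaled by length, this does not count fragments). Within the sum of the 13 messenger RNAs, complex IV genes took 52.1% in the second table and 54.8% in the first. Complex I genes took 37.1% in the second table and 33.7% in the first, complex V genes 6.22% in the second and 5.58% in the first, and MT-CYB 4.64% in the second and 5.94% in the first. The 76 nuclear subunits together held 1.25% of the summed FPKM in the second table and 1.18% in the first.

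Of the 13 mitochondrial messenger RNAs, 12 were lower in the second table (11 once rows off the mitochondrial chromosome had an equal sum), with a median log2 ratio of -0.28 and a range of -0.72 to 0.01. Of all genes with a ratio, 45.2% were lower and the median was 0.05. Abundant genes ran lower than the rest: of 593 identifiers with a mean of at least 100 FPKM, 58% were lower in the second table, with a median of -0.07. Of 175 identifiers outside the mitochondrial chromosome with a mean of at least 300 FPKM, 57.7% were lower, with a median of -0.07 and quartiles of -0.41 and 0.16. No mitochondrial gene differed by 2-fold, and neither did most genes: 2.04% of all genes reached 2-fold higher and 1.68% reached 2-fold lower in the second table. The mitochondrial genes share 1 genome and common precursors, so their number does not count as that many separate observations.

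The nuclear subunits divided into 46 higher and 30 lower in the second table, beside 54.8% higher over all genes. Their median log2 ratio was 0.10, with quartiles of -0.22 and 0.29. Of all 98 nuclear members, 91 had a ratio, with 54 higher, 37 lower and a median of 0.09. The median of the mitochondrial messenger RNAs was thus 0.38 below that of the nuclear subunits. Of the 76 nuclear subunits, 14 had a ratio below the mitochondrial median, so the genomes overlapped widely in their ratios.

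**Figure D2:**
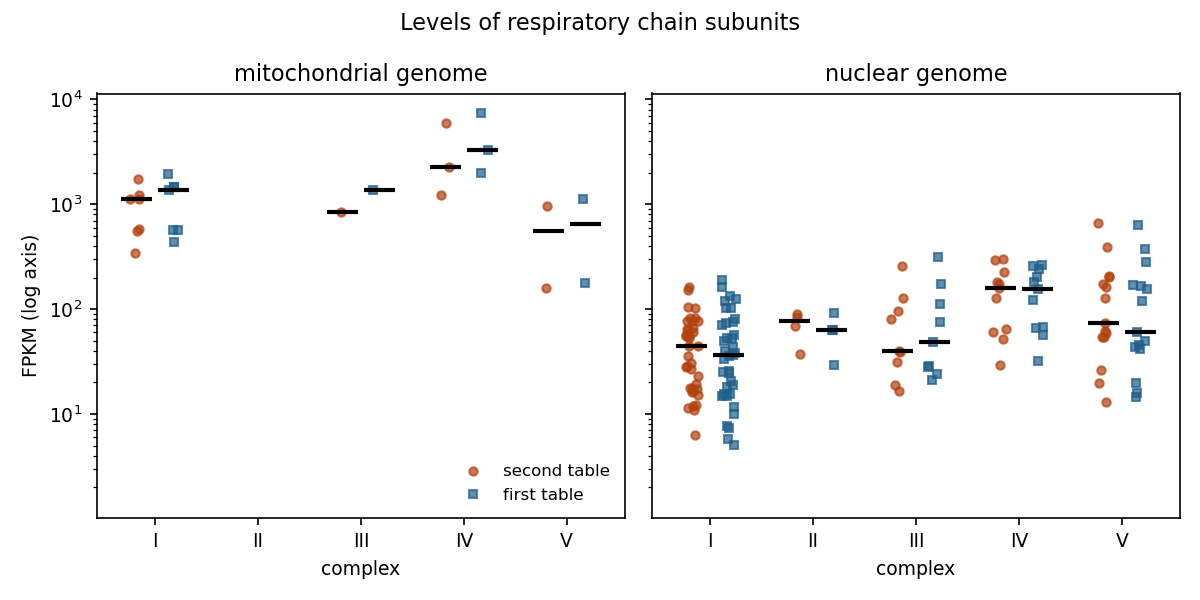
FPKM (log axis) of each respiratory chain subunit by complex, mitochondrial genome in the left panel and nuclear genome in the right, circles for the second table, squares for the first and black bars for medians. Each mitochondrial subunit but MT-ATP8 lies above every nuclear subunit of its complex, and complex IV has the highest median of each genome (mitochondrial 2253 FPKM in the second table and 3282 FPKM in the first, nuclear 159 FPKM in the second and 157 FPKM in the first).

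In level, too, the genomes differed. The median mitochondrial subunit was listed at 18.8 times the FPKM of the median nuclear subunit in the second table and 26.1 times in the first. Within complex I the gap was 25.1-fold in the second table and 37.7-fold in the first, within complex IV 14.2-fold in the second and 20.9-fold in the first, and within complex V 7.68-fold in the second and 10.8-fold in the first. Nuclear subunits of one complex were not listed at equal levels either. Their FPKM spanned 25.6-fold in complex I in the second table and 37.7-fold in the first, in complex V 50.4-fold in the second and 43.8-fold in the first, and in complex IV 10.3-fold in the second and 8.29-fold in the first. The order of the 76 levels was nearly the same in both tables, with a Spearman correlation of 0.97 across genes, which are not replicates, against 0.96 over all 14270 genes.

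Complex I, the NADH dehydrogenase, held 37 nuclear subunits, with a median log2 ratio of 0.09. Of these, 23 were higher and 14 lower in the second table, beside 54.8% higher over all genes. NDUFB6, a membrane arm subunit (chromosome 9, 32540544 to 32573184; ENSG00000165264), was listed at 17.7 FPKM in the second table, against 7.70 FPKM in the first. Its log2 ratio of 1.10 was the highest of the chain and made it the sole member at least 2-fold apart on this scale. Of all genes, 2.04% were at least 2-fold higher and 1.68% at least 2-fold lower. NDUFB6 shared its merged locus with TOPORS, TOPORS-AS1 and GVQW1, and of the members alone at their locus 0 were 2-fold higher. NDUFS1, the core subunit that carries iron-sulphur clusters next to the NADH site, followed at 11.4 FPKM in the second table and 5.83 FPKM in the first, a log2 ratio of 0.86. NDUFS1 shared its merged locus with EEF1B2.

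At the other end, NDUFS7, a core iron-sulphur subunit near the quinone site (chromosome 19, 1383527 to 1396467), was listed at 53.1 FPKM in the second table and 80.3 FPKM in the first, a log2 ratio of -0.59. NDUFA2, an accessory subunit of the matrix arm, was listed at 22.9 FPKM in the second table and 33.6 FPKM in the first, a log2 ratio of -0.53. The most abundant nuclear subunit of complex I, NDUFB11 of the membrane arm, was listed at 163 FPKM in the second table and 189.6 FPKM in the first. The 7 nuclear core subunits thus lay on both sides, with 3 higher and 4 lower. NDUFV2, a core subunit beside the NADH site, was listed at 44.6 FPKM in the second table and 36.4 FPKM in the first. The matrix arm (16 nuclear subunits, median 0.10) and the membrane arm (20 nuclear subunits, median 0.08) had similar medians. The mitochondrial subunits of the same membrane arm had a median of -0.27.

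The 8 complex I assembly factors with NDUFAF names were listed at lower levels than the subunits, with a median of 7.63 FPKM in the second table and 5.37 FPKM in the first. Of these, 5 were higher and 3 lower in the second table, beside 54.8% higher over all genes. NDUFAF4 had the highest ratio, with 8.35 FPKM in the second table and 4.53 FPKM in the first, and NDUFAF8 the lowest, with 19.8 FPKM in the second and 25.2 FPKM in the first.

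Complex II, succinate dehydrogenase, links the chain to the citric acid cycle. The flavoprotein SDHA was listed at 84.5 FPKM in the second table and 92.1 FPKM in the first, and the iron-sulphur subunit SDHB at 69.3 FPKM in the second and 63.5 FPKM in the first. The membrane anchors SDHC and SDHD were listed at 90.2 FPKM and 37.4 FPKM in the second table, against 63.6 FPKM and 29.1 FPKM in the first. Of the 4 subunits 3 were higher in the second table, beside 54.8% higher over all genes. Both anchors had larger ratios (0.50 and 0.35) than the catalytic subunits (-0.12 and 0.12). SDHD lay in a merged locus of 7 identifiers.

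Complex III, which passes electrons from quinol to cytochrome c, was the complex whose nuclear subunits ran lowest, with a median log2 ratio of -0.29. Of the 9 subunits, 6 were lower in the second table, beside 45.2% lower over all genes. CYC1, the cytochrome c1 that gives electrons to cytochrome c, was listed at 128 FPKM in the second table and 172 FPKM in the first, a log2 ratio of -0.42. UQCRC1, a large core protein and the most abundant nuclear subunit of the complex, was listed at 257 FPKM in the second table and 313 FPKM in the first. UQCR10 was listed at 18.9 FPKM in the second table and 24.2 FPKM in the first. UQCRFS1, the Rieske iron-sulphur protein, was higher in the second table, with 39.8 FPKM in the second table and 28.4 FPKM in the first, a log2 ratio of 0.47, and UQCRC2 was listed at 31.0 FPKM in the second and 27.9 FPKM in the first. All 9 nuclear subunits had a higher ratio than MT-CYB.

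Complex IV, cytochrome c oxidase, held 11 nuclear subunits here, with NDUFA4 counted among them since it is a subunit of this complex. Of these 5 were higher and 6 lower in the second table, beside 54.8% higher over all genes, with a median log2 ratio of -0.05. With FPKM rescaled to an equal sum of the rows off the mitochondrial chromosome the sign of that median turned, to 0.04. COX7C, a small structural subunit, was listed at 304 FPKM in the second table and 257 FPKM in the first, and COX4I1, a regulatory subunit that binds ATP, at 295 FPKM in the second and 266 FPKM in the first. COX6A1 was listed at 181 FPKM in the second table and 157 FPKM in the first. COX5B, which binds zinc, was listed at 175 FPKM in the second table and 204 FPKM in the first, and COX6C at 52.0 FPKM in the second and 67.5 FPKM in the first, the lowest ratio of the nuclear subunits of this complex at -0.37. The other 10 nuclear subunits had higher ratios than all 3 mitochondrial subunits, and COX6C lay between MT-CO1 and MT-CO3.

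Complex V, ATP synthase, had 12 of the 15 nuclear subunits taken by name higher in the second table, beside 54.8% higher over all genes. The median log2 ratio of these 15 was 0.25, close to the 0.24 of complex II. The names left out C14orf2 and USMG5, further subunits now named ATP5MJ and ATP5MK. Both were lower in the second table, with log2 ratios of -0.19 and -0.04, and they enter no value given here for complex V. ATP5B, the catalytic beta subunit now named ATP5F1B (chromosome 12, 56638175 to 56646068; ENSG00000110955), was listed at 659 FPKM in the second table and 630.1 FPKM in the first, the highest level of any nuclear member. ATP5C1, the rotating gamma subunit, was listed at 61.5 FPKM in the second table and 45.0 FPKM in the first, a log2 ratio of 0.44, and ATP5E, the epsilon subunit beside it, at 19.7 FPKM in the second and 14.4 FPKM in the first. ATP5D, the delta subunit of the same stalk, was listed at 207 FPKM in the second table and 283 FPKM in the first, a log2 ratio of -0.45. These 3 subunits of the stalk thus lay on both sides. Without identifiers that share a locus, the complex V median was 0.11 with 5 subunits higher, below the 0.12 of complex II. ATP5I, a small membrane subunit, was listed at 13.1 FPKM in the second table and 15.9 FPKM in the first.

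ATP5G1, ATP5G2 and ATP5G3 encode the same mature protein of the rotor ring from separate genes. ATP5G2 was listed at 389 FPKM in the second table and 373 FPKM in the first, ATP5G3 at 173 FPKM in the second and 157 FPKM in the first, and ATP5G1 at 162 FPKM in the second and 169.6 FPKM in the first. ATP5G2 was the highest in both tables, and the 3 log2 ratios lay between -0.06 and 0.15. The mitochondrial subunits MT-ATP6 and MT-ATP8 had ratios of -0.21 and -0.15, below 13 of the 15 nuclear subunits.

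**Figure D3:**
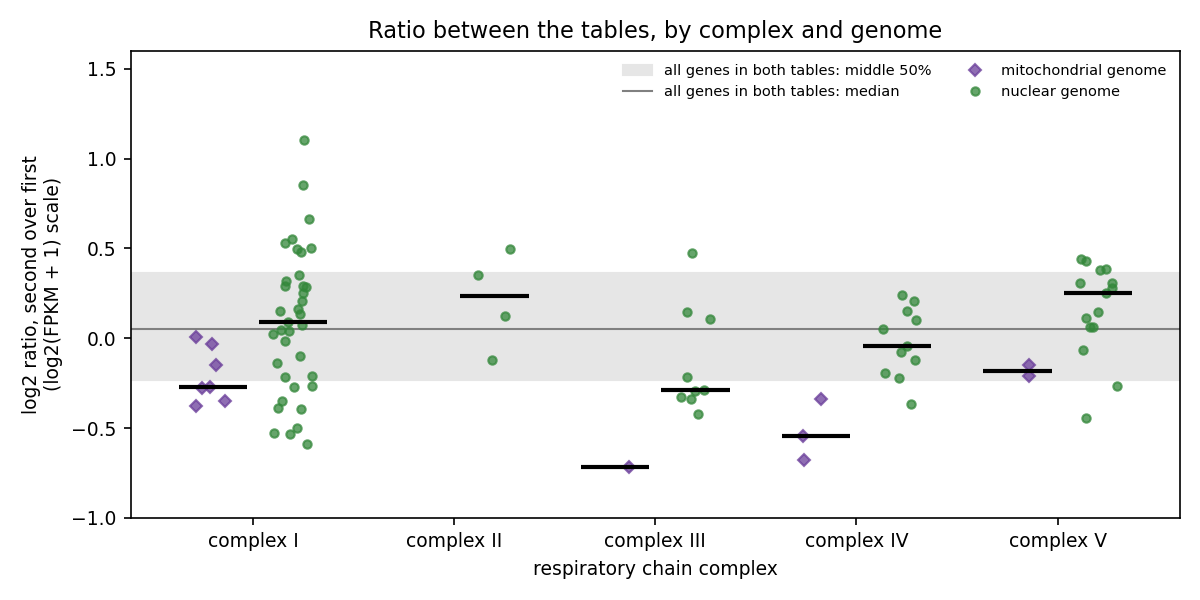
Log2 ratio of second over first table (log2(FPKM + 1) scale) for each subunit, by complex, with diamonds for the mitochondrial and circles for the nuclear genome. Black bars are medians, the grey line is the median over all 14270 genes (0.05) and the grey band their middle 50%. In complexes I, III, IV and V the mitochondrial median lies below the nuclear one.

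The gap between the medians of the genomes, mitochondrial minus nuclear, was -0.36 in complex I, -0.43 in complex III, -0.50 in complex IV and -0.43 in complex V. Only MT-CYB stands for the mitochondrial side of complex III. The gaps were not matched for level, in which the genomes differed too. The 175 identifiers off the mitochondrial chromosome with a mean of at least 300 FPKM had a median of -0.07 (quartiles -0.41 and 0.16). The nuclear medians of the complexes, for the subunits taken by name, differed from each other by up to 0.54, between complex III and complex V. Among identifiers alone at their locus that spread was 0.41, and the gap between the genomes was -0.46 in complex IV, so which of them is larger depends on this choice. With no replicate, neither size can be set against an error.

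The ratios of the nuclear subunits also followed gene density, which runs with the ratio over all genes of these tables as well. Density was counted as listed genes whose locus starts within 1 Mb of the start of the gene's own locus. Of the 76 subunits, 37 shared a merged locus, so their counts are taken around its start and not around the gene. Split in 3 classes of nearly equal size, ties going by gene name, the subunits in the sparsest regions (26 subunits, 2 to 16 genes) had 22 higher and 4 lower in the second table, with a median log2 ratio of 0.27. The middle class (25 subunits, 16 to 37 genes) had 16 higher and 9 lower, with a median of 0.14. The densest class (25 subunits, 37 to 103 genes) had 8 higher and 17 lower, with a median of -0.19. Over all genes 54.8% were higher, and the share of all genes within each density class was not computed. Spearman's correlation of ratio and density was -0.49 across the 76 subunits, which share the same 2 tables, and -0.38 across the 7135 genes at or above the median level of 4.93 FPKM.

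Chromosome 19, which is rich in genes, held 10 nuclear subunits, of which 8 were lower in the second table, with a median of -0.34. They were NDUFS7, NDUFB7, NDUFA3, ATP5D, NDUFA11, UQCR11, NDUFA13 and COX6B1. UQCRFS1, with 6 listed genes within 1 Mb, and NDUFA7 were the 2 that were higher. Of the 542 genes of chromosome 19 at or above the median level, 67.2% were lower, with a median of -0.13. Without chromosome 19, 44 of 66 subunits were higher, the median was 0.12 and the correlation with density was -0.38. COX6C and UQCRB went against the pattern, with 7 and 4 genes within 1 Mb and log2 ratios of -0.37 and -0.33. The count for COX6C is around the start of a merged locus shared with VPS13B (chromosome 8, 99013266 to 99894062), and may not describe COX6C itself. The median number of genes within 1 Mb was 20 for complex I, 26.5 for complex II and 28 for complex III. It was 16 for complex IV and 22 for complex V. Complex III, in the densest regions, had the lowest median log2 ratio, -0.29. Complex IV, in the sparsest regions, had one of -0.05, and complex II, second in density with 4 subunits, one of 0.24. Whether density enters the differences between complexes was not tested.

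**Figure D4:**
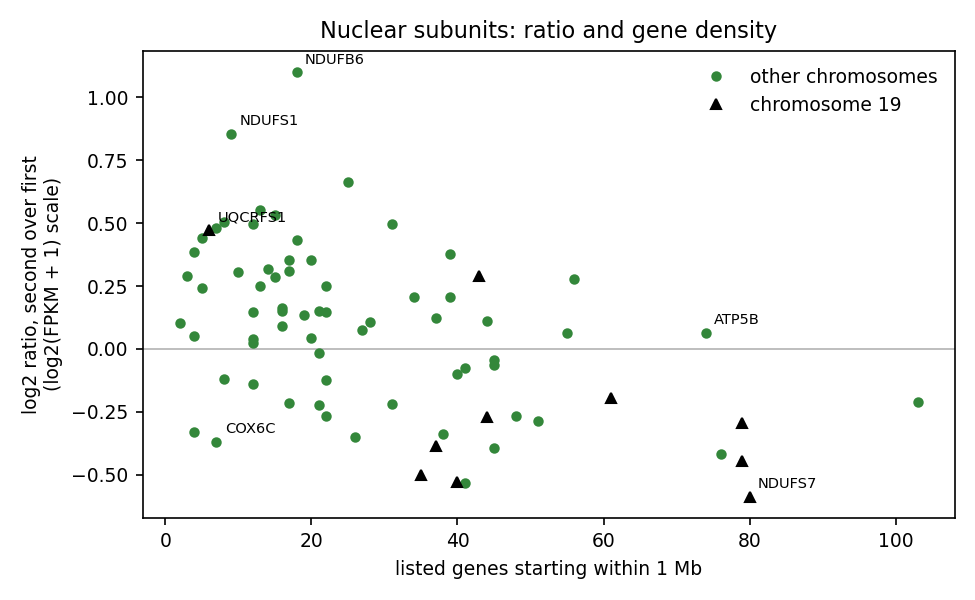
Log2 ratio of second over first table (log2(FPKM + 1) scale) of the 76 nuclear subunits against gene density, with triangles for chromosome 19. Density is the number of listed genes whose locus starts within 1 Mb of the start of the subunit's locus, which is often a merged interval. Subunits in dense regions lie mostly below 0, and NDUFB6 (1.10) and NDUFS7 (-0.59) are the extremes.

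GC content of the promoter was a weaker companion of the ratio. The 62 matched subunits had a median of 61.2% G and C, with 62.5% for those lower and 59.2% for those higher in the second table. Spearman's correlation with the ratio was -0.11 across these subunits and -0.07 across 5762 genes at or above the median level.

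Alternative forms and pseudogenes had low values. COX6B2, a testis form, was listed at 0.261 FPKM in the second table and 0.172 FPKM in the first. NDUFA4L2, a form induced by low oxygen, was listed in the first table only, at 0.425 FPKM, and ATP5L2 likewise at 0.370 FPKM. The pseudogenes COX7BP1 (0.885 FPKM) and COX6A1P2 (0.601 FPKM) were also in the first table only, and NDUFB4P11 (0.996 FPKM), NDUFAB1P1 (0.316 FPKM) and NDUFA9P1 (0.141 FPKM) in the second only. These 7 members were given no ratio. Over all 17721 identifiers, 2554 were in the second table only and 897 in the first only. The pseudogenes UQCRFS1P1 and NDUFV2P1 were in both tables, at 0.923 FPKM and 0.824 FPKM in the second, against 2.04 FPKM and 1.77 FPKM in the first. With a pseudocount of 0.1 FPKM these 2 were at least 2-fold lower. Their parent genes UQCRFS1 and NDUFV2 were higher in the second table. COX7A2L, which helps join complexes III and IV, was listed at 78.2 FPKM in the second table and 79.4 FPKM in the first.

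The proteins that assemble the chain outside the names above formed a list of 46 genes, all in both tables. Of these 28 were higher and 18 lower in the second table, beside 54.8% higher over all genes, with a median log2 ratio of 0.22. On this scale 4 were at least 2-fold higher and 0 at least 2-fold lower, beside 2.04% and 1.68% of all genes. With a pseudocount of 0.1 FPKM, 5 were at least 2-fold higher and 1 at least 2-fold lower, and of the genes alone at their locus 1 was 2-fold higher. The share of all genes past 2-fold with a pseudocount of 0.1 FPKM was not computed. Counts with it, here and for the lists below, thus have no background beside them. COA6, which helps insert copper into MT-CO2, was listed at 32.1 FPKM in the second table and 13.5 FPKM in the first. COX20, a chaperone of MT-CO2, was listed at 8.58 FPKM in the second table and 3.23 FPKM in the first. NUBPL, which delivers iron-sulphur clusters to complex I, was listed at 3.39 FPKM in the second and 0.997 FPKM in the first, and LYRM7, which matures UQCRFS1, at 1.71 FPKM in the second and 0.347 FPKM in the first. Both ratios depend on the pseudocount: NUBPL had a log2 ratio of 1.14 and LYRM7 one of 1.01, against 1.67 and 2.02 with 0.1 FPKM. CMC1, which helps maturation of complex IV, had the lowest ratio, at 3.31 FPKM in the second table and 6.59 FPKM in the first.

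The list of mitochondrial transcription and RNA handling held 39 genes, 37 with a ratio. Of the 37, 24 stood higher and 13 lower in the second table, beside 54.8% higher over all genes. The median log2 ratio was 0.26 and none reached 2-fold on the log2(FPKM + 1) scale. With a pseudocount of 0.1 FPKM, 3 of them were at least 2-fold higher: TFAM, PNPT1 and NSUN3. Among genes at or above the median level that median was 0.05. TFAM, which packs mitochondrial DNA and starts its transcription, was listed at 6.86 FPKM in the second table and 2.96 FPKM in the first, a log2 ratio of 0.99. The RNA polymerase POLRMT stood the other way, with 65.7 FPKM in the second table and 88.8 FPKM in the first. PNPT1 and SUPV3L1, which together degrade mitochondrial RNA, were listed at 7.27 FPKM and 28.6 FPKM in the second table, against 3.34 FPKM and 17.8 FPKM in the first. PDE12 and REXO2, nucleases of the same compartment, were at 6.20 FPKM and 26.3 FPKM in the second table and 3.20 FPKM and 16.5 FPKM in the first. LRPPRC, which stabilises mitochondrial messenger RNAs, was listed at 31.3 FPKM in the second table and 25.3 FPKM in the first. FASTK had the lowest ratio of the list, with 35.9 FPKM in the second table and 51.4 FPKM in the first. TFAM and FASTK are the ends of the list. The others named were picked with their values known. Of the same list, MRPL12, MTPAP and TBRG4 were lower in the second table, with log2 ratios of -0.35, -0.34 and -0.33. TFB1M, TFB2M and TEFM were higher, with 0.56, 0.50 and 0.32. The relation of these genes to the mitochondrial messenger RNAs was not tested.

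NSUN4 and NSUN3 were both higher in the second table. NSUN4 was listed at 15.3 FPKM in the second table and 9.59 FPKM in the first, a log2 ratio of 0.62, and NSUN3 at 3.50 FPKM in the second and 1.38 FPKM in the first. MT-RNR1, which carries the NSUN4 site, was also higher in the second table, as given above. The relation of these values was not tested.

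A list made for electron carriers and their suppliers held 26 genes, 22 with a ratio. It also took in C14orf2, USMG5, ATPIF1, HIGD1A and HIGD2A, which are neither carriers nor suppliers. Of the 22, 11 were higher and 11 lower in the second table, beside 54.8% higher over all genes. Their median log2 ratio was 0.05, and 1 was at least 2-fold higher (2 with a pseudocount of 0.1 FPKM). Centring on the median of all identifiers turned the sign of that median, to -0.01. SQRDL, the sulphide oxidase that feeds electrons to quinone, was that gene, with 15.5 FPKM in the second table and 6.86 FPKM in the first. Cytochrome c itself (CYCS) was listed at 15.4 FPKM in the second table and 11.0 FPKM in the first, and the electron transfer flavoprotein ETFB at 23.6 FPKM in the second and 32.4 FPKM in the first. The nuclear regulators of the chain numbered 11, with 6 higher and 5 lower, beside 54.8% higher over all genes. They had a median log2 ratio of 0.10 (-0.03 among those at or above the median level) and none at 2-fold on the log2(FPKM + 1) scale. TFAM, the highest of them too, reached 2-fold with a pseudocount of 0.1 FPKM (1.18). NRF1 was listed at 8.29 FPKM in the second table and 8.52 FPKM in the first, the GABP subunit GABPA at 2.11 FPKM in the second and 1.59 FPKM in the first, YY1 at 14.6 FPKM in the second and 9.25 FPKM in the first, and PPARGC1A at 1.22 FPKM in the second and 1.06 FPKM in the first. PERM1, a muscle regulator, had the lowest ratio, at 0.126 FPKM in the second table and 0.310 FPKM in the first, a log2 ratio of -0.22 (-0.86 with a pseudocount of 0.1 FPKM).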

How the data were processed

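The 6 samples were RNA of U2OS cells, from shDNMT1 and shNC cells, as input or co-immunoprecipitated with an NSun2 mutant. The authors deposited 2 tables of FPKM, with columns of gene identifier, name and locus per the file headers. Which tool made the FPKM is unknown. Tools listed without a role, per the submitters' processing notes, were cutadapt 1.12, MACS 1.4.2 and BWA 0.7.13, beside the build hg38. Depth is unknown, and no p-value or interval was computed.

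Members were taken by locus or gene name, and the members and lists were chosen with earlier results of these data known. The ratio was log2((second + 1)/(first + 1)) for identifiers in both tables, without a filter on level. Genes named singly were the most abundant subunit of each complex and genome, the 2 highest and 2 lowest ratios per complex at or above the median level, all mitochondrial genes, members at least 2-fold apart or in 1 table only, and the ends of each list with its genes at least 2-fold apart. Others were named with their values known, among them NDUFV2, NDUFAF4, the ATP5G genes and the subunits of chromosome 19. Summaries were tested on simulated data.

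Loci in the tables have starts counted from 0. With 1 added, the 10 mitochondrial genes alone at their locus had the RefSeq start in all 10 cases. A locus was often a merged interval: 47.5% of identifiers shared theirs. Gene density, motif letters and the stretches shown were chosen with the values known, and a first search with longer NRF1 and YY1 letters is not reported. Promoters came from RefSeq (GRCh38.p14), matched by present symbol for 62 of 76 nuclear subunits. Tools were Python 3.11.15, numpy 2.4.6, pandas 2.3.3, scipy 1.17.1 and, for figures, matplotlib 3.10.9.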

Additional observations from a re-analysis of the deposited data

How the results depend on the processing

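No paired analysis was possible because neither table gives a replicate number, and leave-one-out settings were not run for the same reason. Of 1076 values recomputed under 11 alternatives, 9 planned and 2 chosen after seeing the data, 1045 moved by at most 0.1 on the log2 scale, 1.5 times for counts or 5% for the mitochondrial share of FPKM, and 31 moved further. Most alternatives leave most values untouched by construction. With a pseudocount of 0.1 FPKM, the nuclear members with a 2-fold lower level in the second table numbered 2 in place of 0, both of them pseudogenes. Genes at least 2-fold higher then numbered 3 for mitochondrial transcription and RNA, 1 for nuclear regulators and 2 for electron carriers, 1 assembly factor was 2-fold lower, and 9 single genes moved by more than 0.1. The share of all genes past 2-fold was not computed with this pseudocount. Among identifiers alone at their locus, where fewer genes enter by construction, 28 nuclear members were higher and 22 lower, 0 were at least 2-fold higher, 11 complex I, 3 complex IV and 5 complex V subunits were higher, and the medians became 0.12 for complex II and 0.11 for complex V, so that complex II stood highest and the spread of the complexes was 0.41. There 1 assembly factor and 0 electron carriers were 2-fold higher, and no mitochondrial complex V subunit was left. At or above the median level, 2 assembly factors were 2-fold higher, and the medians became 0.0522 for mitochondrial transcription and RNA genes and -0.0253 for nuclear regulators, whose sign turned, as did that of electron carriers, to -0.04. The cause was not tested. With protein-coding rows only, 1 mitochondrial gene was higher, since the ribosomal RNAs were left out. The median of complex IV nuclear subunits turned to 0.04 with an equal sum of rows off the mitochondrial chromosome and to 0.00346 without chromosome 19. The equal sum put 2 mitochondrial RNA genes and 1 nuclear regulator past 2-fold, brought the median of all genes to 0.12, against 0.05 as deposited, and turned MT-ND6 to 0.05. The mitochondrial median stayed below the nuclear one under all 11 alternatives. Depth is unknown, which limits what can be said of genes near 0 FPKM.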
